A study of Drosophila melanogaster with 2 samples.

Results

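Among the summits that passed the authors' reproducibility threshold, 1620 lay within 200 bp of the transcription start site (TSS) of a protein-coding gene at a promoter that was not divergent. A promoter was counted as divergent when another coding gene, on the opposite strand and pointing away, started at most 1000 bp from a coding TSS near the summit. The other 5709 thresholded summits comprised 1278 at divergent promoters, 926 lying farther upstream and 490 farther downstream of a coding TSS by up to 1000 bp, 83 at starts of non-coding genes only, and 2932 elsewhere. The data came from chromatin immunoprecipitation and sequencing (ChIP-seq) of Fer1 tagged with eGFP at its C-terminus, in whole embryos of mixed sex, 6 to 24 h old. All embryos were from a single transgenic Drosophila melanogaster line, with no untagged or other group, and the 2 biological replicates were precipitated with an antibody against GFP after sonication to fragments of 200 to 800 bp. The antibody reads the tagged protein in every cell of the embryo together, so binding in few cells and weak binding in many cells cannot be told apart. A control library is named in the labels but was not analysed here, so the signal of a peak was set only against other peaks. The signal is the authors' own value per peak in their units, used within a list only, and the number of reads behind it is unknown.

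Fer1, the fly relative of mammalian PTF1A, belongs to the basic helix-loop-helix (bHLH) family, whose members pair up and bind the E-box, CANNTG in letters. A core promoter is the stretch around a TSS where RNA polymerase II and the general transcription factors assemble. In flies, promoters of broadly expressed genes are known for sites such as the DNA replication-related element (DRE), bound by DREF, and Motif 1, bound by M1BP, whereas many promoters of regulated genes hold a TATA box or GAGA repeats, the site of the GAGA factor. Divergent promoters, where genes of a pair start back to back, are common in the compact fly genome and place the upstream region of each gene beside the other gene's start. At a non-divergent promoter no back-to-back coding start lies within the limit set here, although starts of the same gene or of another gene can still lie close, and 45 of the 1620 summits had coding TSSs of more than 1 gene within 200 bp.

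The windows below run 50 bp to each side of a summit, on dm6 and on the strand of the gene whose TSS was nearest. They show the strongest summit and, for the motifs around which the results turn, an example each: the strongest summit with the motif among 492 windows that were free of annotated exons and lay outside 1 chromosome arm. Stronger summits with the same motifs lie outside these 492 and are named further on. Capitals mark the motif, on either strand: TATCGATA for the DRE, GGTCACAC for Motif 1, CATCNCTA for Motif 7, GAGAGA for GAGA, and CAGCTG for the E-box form. Windows free of exons lie upstream of the TSS, so they are not typical of summits at the TSS itself.
Strongest summit, CG14100, chr3L:19590573-19590673 (- strand): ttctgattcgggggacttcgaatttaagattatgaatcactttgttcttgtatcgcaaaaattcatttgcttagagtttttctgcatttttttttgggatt
Motif 1, Tpst, chrX:13563672-13563772 (+ strand): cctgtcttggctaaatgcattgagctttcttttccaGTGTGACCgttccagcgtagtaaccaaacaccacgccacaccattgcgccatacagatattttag
DRE, Jwa, chr2L:18705833-18705933 (- strand): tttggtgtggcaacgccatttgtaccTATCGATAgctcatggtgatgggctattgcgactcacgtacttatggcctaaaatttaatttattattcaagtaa
CAGCTG E-box, CG6345, chr3R:10416082-10416182 (- strand): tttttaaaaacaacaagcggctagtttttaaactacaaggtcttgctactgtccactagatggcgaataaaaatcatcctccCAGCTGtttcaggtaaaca
Motif 7, Regnase-1, chr3R:20036116-20036216 (- strand): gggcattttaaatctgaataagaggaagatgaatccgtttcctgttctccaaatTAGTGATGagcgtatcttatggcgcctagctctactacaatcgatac
GAGA, nebu, chr3L:12843216-12843316 (- strand): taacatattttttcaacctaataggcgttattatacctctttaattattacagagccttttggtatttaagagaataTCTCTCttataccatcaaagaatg

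The CG14100 window lay with its summit 99 bp upstream of the TSS and held 31.7% G or C. The nebu summit lay 160 bp upstream, in a window with 27.7% G or C, and the Regnase-1 summit 110 bp upstream with 40.6%. The signals of these examples ranged widely. CG14100 had a pooled signal of 2900.9, nebu 1349.4, Regnase-1 778.9, CG6345 577.7, Jwa 314.2 and Tpst 168.4, the last without a replicate peak that shared 50% of both intervals.

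Summits leaned to the upstream side of the TSS. The median position was 33 bp upstream, with quartiles at 119 bp upstream and 33 bp downstream, and 1027 of 1620 summits, 63.4%, lay upstream (95% Clopper-Pearson interval 61.0% to 65.7%). Among each replicate's own highest peaks, as many as the thresholded list holds, 1601 summits met the same rule in each replicate, with medians 35 bp and 32 bp upstream and 63.1% and 62.9% upstream in replicates 1 and 2. Within 50 bp of the TSS lay 625 summits, 38.6%. Over 100 bp upstream lay 470 summits, 29.0%, whereas 144 lay over 100 bp downstream. At divergent promoters, where the summit was read against the nearest coding TSS, 63.5% of 1278 summits lay upstream with a median of 34 bp, so the lean itself was much the same at both kinds of promoter. Annotated 5′ UTRs held 610 summits, intergenic sequence 572, introns 364, coding exons 30, 3′ UTRs 22 and non-coding exons 22. Fragments of 200 to 800 bp limit how exactly a summit can be placed. Of all summits, 1185 were matched in the full lists of both replicates. For these, the replicates' own summits lay a median of 27 bp apart (upper quartile 61 bp) and on the same side of the TSS in 85.7%.

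Signal and position went together. The 405 strongest summits, with signals of 260.3 to 2900.9, had their median 107 bp upstream, and 207 of 405, 51.1%, lay over 100 bp upstream (interval 46.1% to 56.1%). Among the 405 weakest, with signals of 110.3 to 135.2, the median lay 10 bp upstream and 64 of 405, 15.8%, lay over 100 bp upstream (interval 12.4% to 19.7%). The order ran the other way for summits close to the TSS, where 94 of the 405 strongest and 185 of the 405 weakest lay within 50 bp. The same split of each replicate's own summits into 4 groups put 49.8% of the strongest group and 18.7% of the weakest over 100 bp upstream in replicate 1, and 49.2% of the strongest and 18.2% of the weakest in replicate 2. Spearman's rho of signal and signed distance was −0.283 over the 1620 pooled summits, −0.249 over 1601 in replicate 1 and −0.243 over 1601 in replicate 2. These coefficients are descriptions across summits, which share their libraries. Divergent promoters showed the pattern too, with 44.2% of the 319 strongest over 100 bp upstream and 12.2% of the 320 weakest. The split was chosen after the values were seen, so no test is given.

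**Figure D1:**
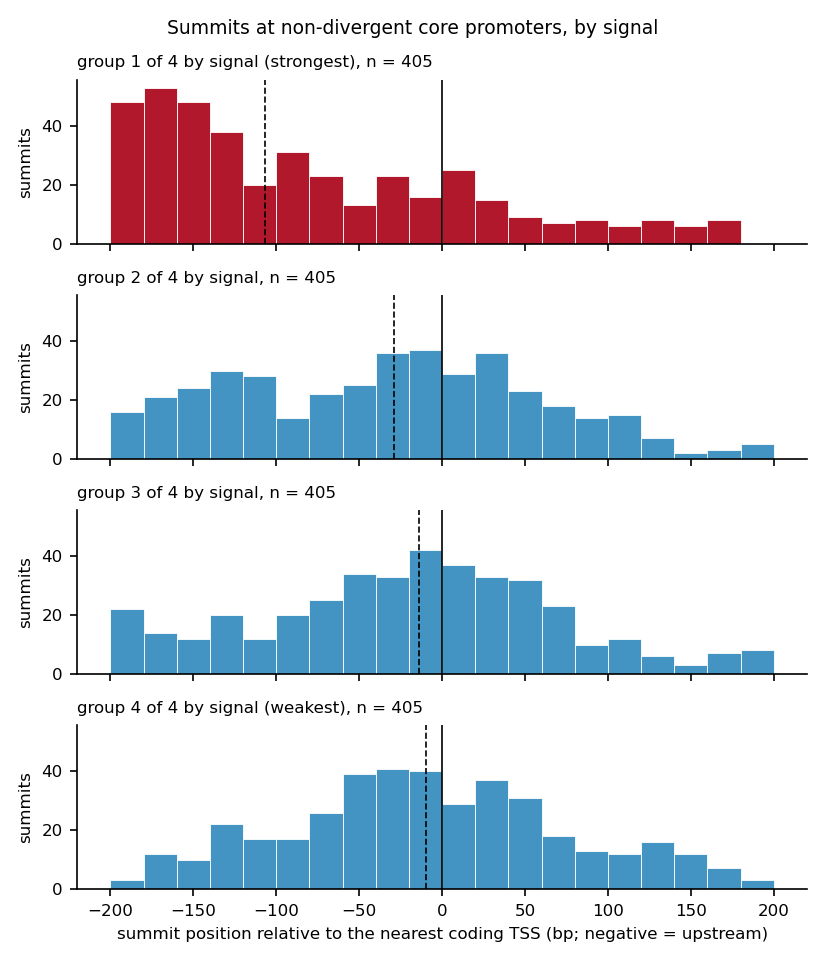
Position of the 1620 summits relative to the nearest coding TSS, in bp with negative values upstream, in 4 groups of 405 from the strongest by pooled signal (top) to the weakest (bottom), in 20 bp bins. The solid line marks the TSS and the dashed line the median, which lies 107 bp upstream in the strongest group and 10 bp upstream in the weakest.

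By distance, the median signal was 284.8 for the 239 summits lying 151 to 200 bp upstream, 199.5 for 231 summits at 101 to 150 bp, 168.9 for 231 summits at 51 to 100 bp and 155.8 for 326 summits in the last 50 bp before the TSS. Downstream it stayed between 153.4 and 163.0 in every 50 bp bin up to 199 bp. In units of each list's own median, the bin 151 to 200 bp upstream stood at 1.56 in the pooled list, 1.27 in replicate 1 and 1.41 in replicate 2, and the bin just upstream of the TSS at 0.856, 0.880 and 0.895 in the same order. High signal was not bounded by the 200 bp limit, since the 150 summits 251 to 300 bp upstream had a median of 251.4. Just inside that limit, 53 summits in the last 10 bp on either side had a median of 212.2, and just outside it, 51 summits in the next 10 bp had 181.2. All 1620 summits together had a median signal of 172.9, which was 0.95 of the whole list's 182.1, against 188.9 at divergent promoters, 211.5 for summits farther upstream by up to 1000 bp and 179.4 for those over 1000 bp away.

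**Figure D2:**
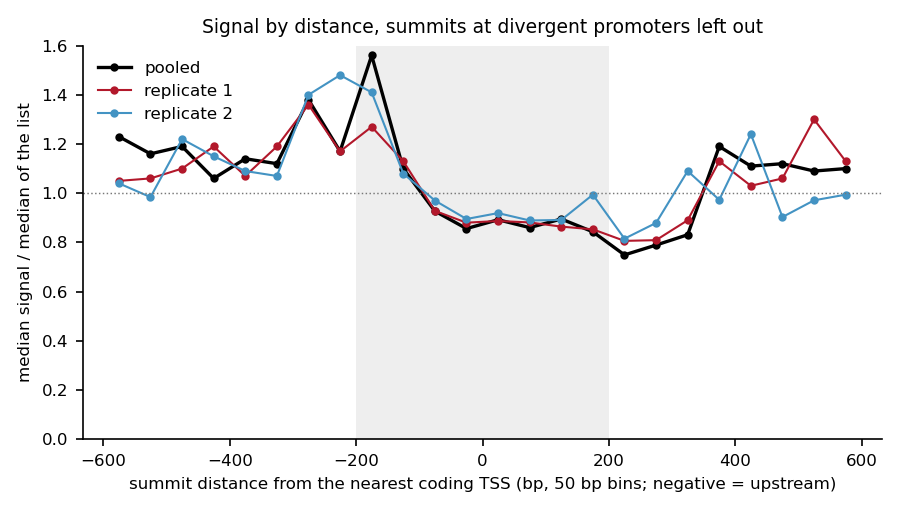
Median signal of summits in 50 bp bins of distance from the nearest coding TSS (x axis, bp, negative upstream), divided by the median of the list (y axis), for the pooled thresholded list and for each replicate's own list of the same length, with summits at divergent promoters left out. The grey band marks the 200 bp on both sides that define the promoter summits. All 3 lists lie above 1 from 151 to 300 bp upstream and below 1 from 100 bp upstream to 199 bp downstream.

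The 15 strongest summits all lay upstream, 14 of them by more than 100 bp and none within 50 bp of the TSS. The first was at CG14100, with a pooled signal of 2900.9 and 1714.0 and 1196.8 in replicates 1 and 2. The second was at Gapdh2, an enzyme of glycolysis, on X at 15867986 (dm6), 159 bp upstream of the TSS at 15868145 on the plus strand, with 2621.9 pooled and 1587.5 and 1034.7 in the replicates. CG14100 stood at rank 5 of the whole list and Gapdh2 at rank 7, and both held ranks 4 to 7 in each replicate alone. Next came px, a nuclear protein of wing vein patterning, with 2488.3, CG18549 with 2152.2, Tina-1 with 2077.9 and Fkbp14, of the FKBP family of prolyl isomerases, with 2074.6. The other 9, from 1957.4 down to 1564.8, were CG31145, CG1635, shn (a zinc finger protein of Dpp signalling), Ptpmeg2 (a tyrosine phosphatase), Glyp (glycogen phosphorylase), MFS10, brwl, PAN3 (of a poly(A)-shortening complex) and gish (a casein kinase). All 15 had a matching peak in both replicates, at rank 55 or better in replicate 1 and 65 or better in replicate 2. In the replicates' own summits, too, 14 of the 15 lay over 100 bp upstream. Among the 100 strongest, 72 lay over 100 bp upstream in the pooled list, 73 by replicate 1's summit and 72 by replicate 2's.

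The strongest summits stood on A- and T-rich sequence. In groups of 162 by signal, windows of the strongest group held 32.8% G or C and those of the next 38.5%, whereas all weaker groups lay between 42.6% and 44.7%. For the 15 strongest the value was 28.2%. Summits over 100 bp upstream differed among themselves: the 207 that belonged to the 405 strongest held 31.2%, the 263 weaker ones 37.9%, and promoters without a summit 38.1% and 38.3% when read at the same distances from their TSSs. Within 50 bp of the TSS, the 94 windows from the 405 strongest held 47.9% and the 531 others 47.2%, against 42.5% and 42.6% at the same distances in promoters without a summit. So upstream of the TSS the strong summits lay below the level of the weaker ones, while at the TSS strong and weak summits stood at about the same level and above promoters without a summit. The Glyp window, 189 bp upstream of the TSS with a signal of 1675.0, reached 14.9% G or C. Base content can shift how many reads are recovered from a site, and its part in the signal was not tested.

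**Figure D3:**
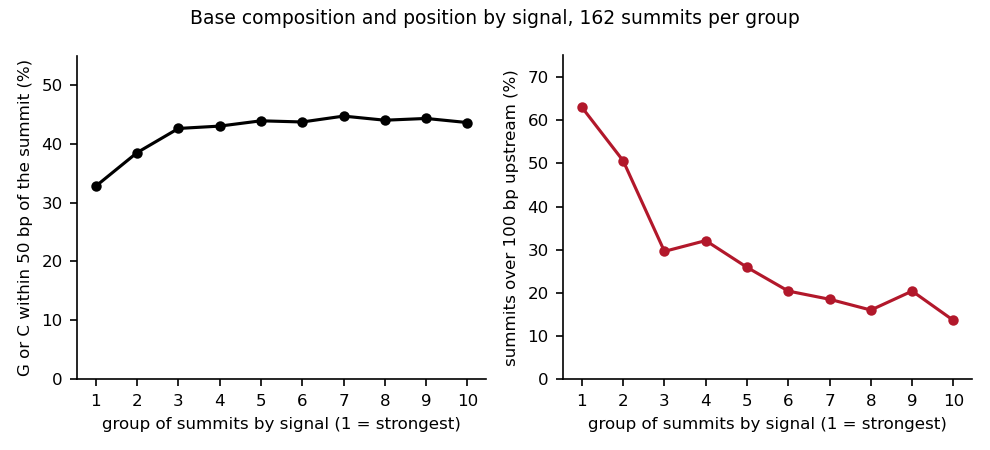
Left, share of G or C within 50 bp of the summit, and right, share of summits over 100 bp upstream of the nearest coding TSS, in 10 groups of 162 summits ordered by pooled signal from the strongest (1) to the weakest (10). The strongest group holds 32.8% G or C and has 63.0% of its summits over 100 bp upstream, and the weakest 43.6% and 13.6%.

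Promoters with and without a summit differed in their core promoter motifs. At the canonical TSS of 1176 non-divergent genes with a summit within 200 bp, and of 7012 non-divergent genes with no thresholded summit within 1000 bp of any TSS, the sequence from 150 bp upstream to 50 bp downstream was searched for 22 motifs on both strands, apart from the TATA box, initiator and TCT motif, which were read on the gene's strand at their own positions. Motif 1 was held by 142 promoters with a summit, 12.1%, and by 199 without, 2.84% (Fisher's exact test, two-sided, Benjamini-Hochberg adjusted p = 4.14e-35). The DRE was held by 11.5% with a summit and 3.88% without (adjusted p = 3.74e-22, Fisher's exact test). Motif 7 was held by 6.89% and 2.67% (adjusted p = 7.17e-11), Motif 6, written GTATNTTT, by 12.5% and 7.92% (adjusted p = 1.83e-06), Motif 8, written GGCANCG, by 14.5% and 9.75% (adjusted p = 6.24e-06), and GAGA by 14.7% and 9.33% (adjusted p = 2.29e-07), each with a summit first and without a summit after it and each by Fisher's exact test. The TATA box, TATAAA starting 40 to 20 bp upstream, went the other way, at 2.64% of promoters with a summit and 11.1% of those without (adjusted p = 2.38e-23, Fisher's exact test). The initiator TCANT stood at 21.9% with a summit and 19.7% without, and the TCT motif of ribosomal protein genes, TCTTT at the TSS, at 2.21% with a summit and 1.47% without, and neither passed (adjusted p = 0.120 and 0.097, Fisher's exact test). The Zelda site CAGGTA stood at 3.66% with a summit and 4.91% without and the TC-box TTTCCC at 11.1% with a summit and 13.4% without, and these did not pass either (adjusted p = 0.0871 and 0.0555, Fisher's exact test). Over all 13944 canonical coding promoters the DRE stood at 7.81%, Motif 1 at 6.82%, Motif 7 at 5.33%, Motif 6 at 10.0%, Motif 8 at 10.4% and GAGA at 9.37%. The divergent ones, 4755 promoters irrespective of a summit, held the DRE at 13.7% and Motif 1 at 11.9%. Their shares were 9.63% for Motif 7, 13.0% for Motif 6, 9.70% for Motif 8 and 6.12% for GAGA.

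Promoters with a summit did not hold more E-boxes. Any CANNTG was found in 711 of 1176, 60.5%, with a summit and in 65.0% without, which was lower (adjusted p = 0.00505, Fisher's exact test). The 10 forms divided. CAGCTG was held by 217 of 1176, 18.5%, with a summit and by 11.0% without (adjusted p = 3.75e-11, Fisher's exact test), the only one of the 10 forms that was higher. CAACTG was lower, at 12.7% with a summit and 18.5% without (adjusted p = 1.73e-06), and so were CAAATG (14.5% with a summit and 18.3% without), CAAGTG (10.1% with and 13.3% without) and CAGATG (6.12% with and 8.26% without), with adjusted p of 0.0033, 0.00439 and 0.0206 by Fisher's exact test. The other 5 forms did not pass. Over all canonical coding promoters CAGCTG stood at 14.2%, and at the divergent ones, irrespective of a summit, at 18.2%. Of the lower E-box calls, that of CAACTG passed under every alternative run. In the window of 100 bp before the TSS, E-boxes as a class, CAAGTG (−0.126 percentage points) and CAGATG did not pass (adjusted p = 0.447, 0.949 and 0.205, Fisher's exact test). With divergent partners sought up to 2000 bp away, E-boxes as a class, CAAATG and CAGATG did not pass (adjusted p = 0.0519, 0.0501 and 0.0635, Fisher's exact test), and CAGATG did not pass without replicate 1 either (adjusted p = 0.131, Fisher's exact test).

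**Figure D4:**
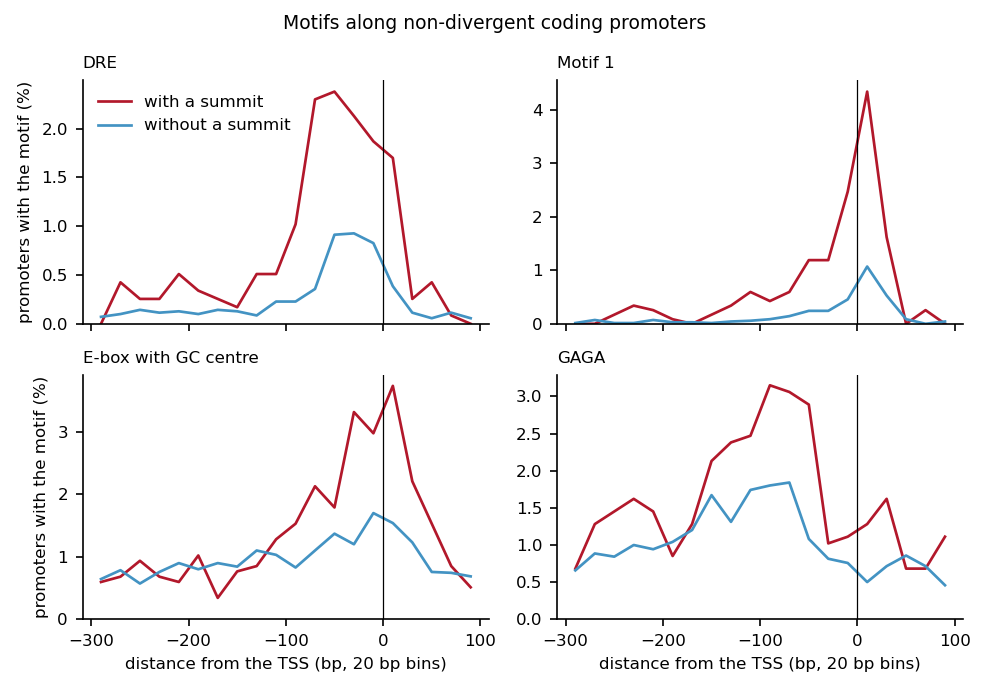
Share of non-divergent coding promoters that hold a motif, by distance of the motif's centre from the canonical TSS in 20 bp bins, for 1176 genes with a summit and 7012 genes without (y axis, %, separate scales). Motif 1 peaks in the first 20 bp after the TSS, at 4.34% with a summit and 1.07% without, and the E-box with a GC centre in the same bin at 3.74% with a summit, against 1.54% without, which is highest in the bin before the TSS at 1.70%.

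The motifs stood at much the same places in both groups of promoters, with the highest bins of the groups equal or adjacent. DREs of promoters with a summit were most frequent 40 to 60 bp upstream, at 2.38%, where promoters without a summit had 0.913% and their own highest bin, 20 to 40 bp upstream, 0.927%. GAGA repeats peaked 80 to 100 bp upstream, at 3.15% with a summit and 1.80% without, where the bin 60 to 80 bp upstream was highest at 1.84%.

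Around the summits themselves, the same motifs were set against equal windows 400 bp upstream of each summit, by exact McNemar tests adjusted over 19 motifs. The DRE lay within 50 bp of 68 of 1620 summits, 4.20%, and in 4 upstream windows, 0.247% (adjusted p = 8.78e-15, exact McNemar test). Motif 1 lay at 3.52% of summits and 0.556% of upstream windows (adjusted p = 8.49e-09), Motif 7 at 3.09% and 0.679% (adjusted p = 1.29e-06), and CAGCTG at 8.46% and 3.33% (adjusted p = 8.49e-09), all by the exact McNemar test. Motif 8, at 6.54% of summits and 3.27% of upstream windows, and GAGA, at 6.67% and 4.32%, passed as well (adjusted p = 7.33e-05 and 0.0125, exact McNemar test). CAAATG was lower, at 7.84% of summits and 10.3% of upstream windows (adjusted p = 0.0497, exact McNemar test). E-boxes as a class stood at 37.5% of summits and 35.0% of upstream windows and did not pass (adjusted p = 0.323, exact McNemar test). Against windows 400 bp downstream the difference in Motif 8 turned to −0.370 percentage points and that in CAAATG to 0.123, neither passing. GAGA did not pass there either (1.79 percentage points, adjusted p = 0.0711, exact McNemar test), nor without replicate 1 (1.75 points, adjusted p = 0.072, exact McNemar test) or within 25 bp of the summit (0.494 points, adjusted p = 0.703, exact McNemar test). Against windows 1000 bp upstream, and within 25 bp, Motif 8 and CAAATG did not pass. With only the part of the list above its median signal, 2 motifs in place of 6 were higher at summits, and Motif 1, Motif 7, Motif 8 and GAGA no longer passed. Some windows overlap, since a gene can have several summits, so the tests treat as separate a few that are not. All summits lay within 200 bp of a TSS by the rule, and the DRE, Motif 1 and CAGCTG gather there at promoters without a summit too. These tests therefore cannot tell nearness to the summit from nearness to the TSS. In 50 bp bins around summits, the DRE was highest beside the summit, at 2.84%. Motif 1 stood at 2.04% in a bin beside the summit and in one 50 to 100 bp away. The E-box with a GC centre was highest 50 to 100 bp away, at 5.06%.

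Summits near the TSS had the DRE, Motif 1, Motif 7 and CAGCTG in their windows more often than those over 100 bp upstream. The DRE, Motif 1 and CAGCTG gather near the TSS at promoters without a summit too. For CAGCTG, the E-box with a GC centre, these had 1.70% in the 20 bp before the TSS and 0.642% 280 to 300 bp upstream. Motif 7 was not profiled in this way. A split by distance gives such a difference in the DRE, Motif 1 and CAGCTG by itself, so it cannot tie them to the summits. Of the 625 summits within 50 bp of the TSS, 7.68% had a DRE in their window, 7.36% Motif 1, 4.96% Motif 7 and 11.2% CAGCTG. Of the 470 summits over 100 bp upstream, the shares were 0.638%, 0.851%, 1.70% and 5.32% for the same motifs, and GAGA differed little, at 6.24% near the TSS and 6.81% upstream. The 57 summits with Motif 1 had a median signal of 147.6, and 15 of them were above the whole list's median. The 68 with a DRE had a median of 161.1, and 28 were above it. Among summits with a DRE the strongest were at Alg3 (1369.7, 72 bp upstream), eEF1gamma (926.4, 37 bp upstream), a subunit of a translation elongation factor, and CG1827 (708.3). With Motif 1 they were at the ribosomal protein genes RpL30 (933.5, 19 bp downstream), RpL37A (548.4) and RpL27A (339.8), and with Motif 7 at Regnase-1 (778.9), Sptr (723.0) and RpL27 (588.6). The strongest with CAGCTG were at CG7737 (1428.9), CG12316 (784.7) and CG9399 (659.6), and the strongest with GAGA at nebu (1349.4), Eip75B (890.6) and out (709.3). These subsets were chosen after the values were seen and are given without a test.

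Against summits at divergent promoters, GAGA was the only one of 19 motifs that differed. It lay within 50 bp of 108 of 1620 summits at non-divergent promoters, 6.67%, and of 29 of 1278 at divergent promoters, 2.27% (adjusted p = 2.98e-07, Fisher's exact test). Over whole promoter windows the divergent class also held less of it, at 6.12% of 4755 divergent coding promoters, irrespective of a summit. The DRE stood at 4.20% of non-divergent and 4.23% of divergent summits, a difference of −0.0278 percentage points, and CAGCTG at 8.46% and 7.90%, a difference of 0.554 points. Windows at non-divergent summits held 42.1% G or C, against 36.9% at divergent ones.

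Of all hexamers, counted with their reverse complements, 249 were higher and 176 lower at summits than 400 bp upstream at an adjusted p below 0.05 (exact McNemar test), 12.0% and 8.46% of those tested. Among the higher ones the first by p was CGAGCG, at 8.33% of summits and 1.73% of upstream windows (adjusted p = 3.46e-15, exact McNemar test). CGATAG followed, at 9.38% of summits and 2.28% of upstream windows, then ACACTG, at 10.9% and 3.33%, TATCGA, at 11.9% and 4.01%, and CGAACG, at 7.90% and 2.47% (adjusted p up to 3.21e-10, exact McNemar test). TATCGA lies within the DRE, and CGATAG overlaps it. ACACTG overlaps the end of Motif 1, GGTCACAC. The limit given above for the DRE and Motif 1, that they gather near the TSS without a summit too, holds for these hexamers. Among the lower ones the first were CAAGGA, at 1.11% of summits and 4.44% of upstream windows, AAGGAC, at 0.802% and 3.70%, ATACAT, at 6.23% and 12.0%, AAATTA, at 15.6% and 23.2%, and CATTAA, at 4.94% and 9.81% (adjusted p from 6.26e-07 to 9.11e-06, exact McNemar test). Summit windows held 42.1% G or C, windows 400 bp upstream 37.9% and windows 400 bp downstream 46.5%, and the calls followed this: of 228 hexamers with at most 1 G or C, 1 was higher and 81 lower, and of 228 with at least 5, 62 were higher and 0 lower. Against the downstream windows AAATTA turned higher, by 5.56 percentage points (adjusted p = 0.000124, exact McNemar test). The first 4 of the higher hexamers passed in the same direction with every window and control tried and in each replicate.

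Of 8893 coding genes with no divergent TSS, 1345 had a summit within 200 bp of a TSS, 15.1% (interval 14.4% to 15.9%), the background for each list below. Of 5052 genes with a divergent TSS, 37.6% had a summit of any class there. Cytoplasmic ribosomal protein genes had by far the most summits among the larger lists, 27 of 37, 73.0% (interval 55.9% to 86.2%). Their 30 summits had a median signal of 308.5, 24 were above the whole list's median, and 22 lay within 50 bp of the TSS with a median 8 bp downstream. RpL23A was the strongest with 992.9 pooled and 581.4 and 411.5 in replicates 1 and 2, followed by RpL30 with 933.5 and RpL24 with 914.6. The RpL23A summit itself lay 75 bp upstream. In position, the summits of this list differed from the 405 strongest summits at large, of which 94 lay within 50 bp of the TSS. Mitochondrial ribosomal protein genes had 3 of 15, near the background, with signals of 225.9 at most.

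Glycolytic enzymes had a summit at 4 of 6 genes without a divergent TSS. All 6 summits nearest to a gene of this list had a median of 695.0, led by Gapdh2 (2621.9), Hex-A, a hexokinase, with 1519.8 and Eno, enolase, with 1177.0, and 4 lay over 100 bp upstream. Chaperone and heat shock genes had 5 of 6. The 6 summits nearest to a gene of that list were led by those at the small heat shock genes Hsp27 (928.9, 163 bp upstream) and Hsp26 (413.1, 139 bp upstream). Next came the mitochondrial chaperone Hsp60A (194.6). Proteasome subunits had 6 of 10, with a median of 128.4, so they were often called but weak. Rpn12 was highest at 197.6, without a replicate peak that shared 50% of both intervals. General transcription machinery had 6 of 12, and the 7 summits nearest to its genes were led by Taf4 of TFIID at 562.5 and TfIIA-S at 346.7. Translation factors had 8 of 26, and the 9 summits nearest to their genes were led by eIF6 (1335.9), eEF1gamma (926.4) and eEF2 (359.7). Genes of ER entry and vesicle coats had 4 of 12, and the 4 summits nearest to them were led by TRAM (1100.4). Aminoacyl-tRNA synthetases had 2 of 10, at AlaRS (201.2), above the whole list's median, and at CysRS (114.3), below it. The AlaRS summit had no replicate peak that shared 50% of both intervals.

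Among regulators, promoter and insulator architecture factors had 4 of 8 genes with a summit. The strongest of the list's summits were at Trl, which encodes the GAGA factor (505.4, 149 bp downstream), CTCF (217.5, 8 bp upstream, beside a DRE) and BEAF-32 (206.0). The matched CTCF peak of replicate 2 stood only at rank 9860. bHLH genes had 11 of 41, 26.8% (interval 14.2% to 42.9%). All 13 summits nearest to a bHLH gene had a median signal of 137.5. They were led by those at net (487.5), emc, an antagonist that lacks the basic region (298.8), and tgo, a partner of other bHLH-PAS proteins (246.5). The tgo summit had no replicate peak that shared 50% of both intervals, and the emc summit none in replicate 2. The bHLH share moved with the list used. It was 17.1% in the peaks of replicate 2 alone, where all genes without a divergent TSS stood at 15%. With the part of the list above its median signal it was 9.76%, where all such genes stood at 7.05%. Fer1 itself was the nearest gene of 2 thresholded summits, and neither was of this class. Pan-neuronal and synaptic genes had 2 of 18, at Fas2 and cpo, a share below the background within its interval of 1.38% to 34.7%. Cuticle protein genes had 0 of 66, which allows a share of up to 5.44% (upper bound of the interval), chemosensory and odorant-binding genes 0 of 193, up to 1.89%, and digestive enzymes 0 of 26, up to 13.2%. These intervals cover counting error over genes only, and the lists are described without a test because they were drawn up with earlier results of these data known.

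**Figure D5:**
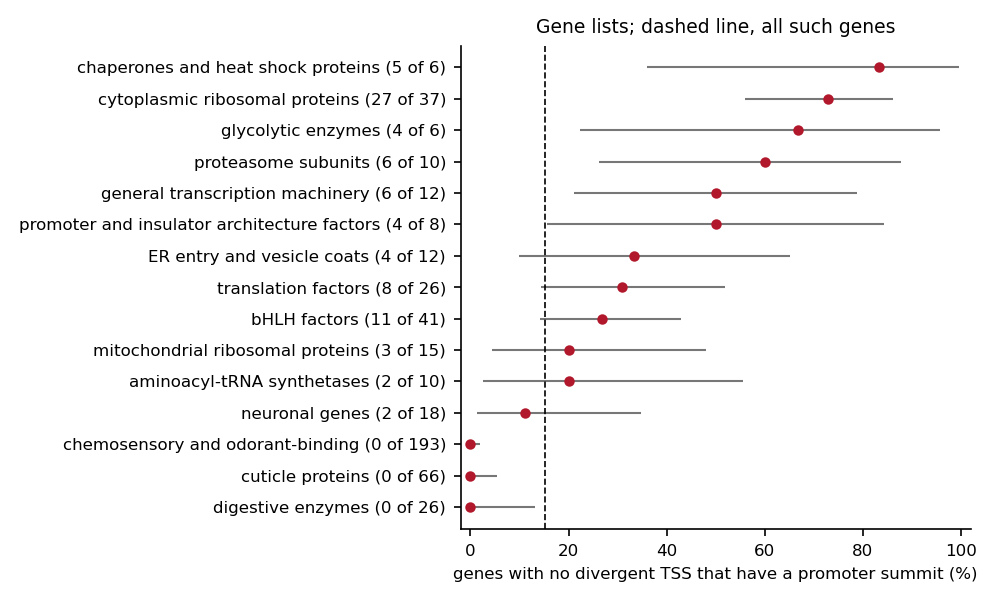
Share of the coding genes with no divergent TSS that had a summit within 200 bp of a TSS, for 15 gene lists (points, with 95% Clopper-Pearson intervals; counts in the labels), and for all 8893 such genes (dashed line, 15.1%). Cytoplasmic ribosomal protein, chaperone, glycolytic, proteasome, transcription machinery and architecture factor genes have intervals wholly above the line. The chemosensory, cuticle and digestive lists have theirs wholly below it.

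The genes with a summit also differed in layout. Genes with a summit at the canonical TSS had a median length of 4157 bp, against 1799 bp for genes without, and 38.9% against 18.5% had more than 1 annotated TSS. Leaving out TSSs inside another coding gene (14.1% with a summit, 20.8% without), the nearest coding gene upstream ended a median of 618 bp away with a summit and 1422 bp away without. A non-coding gene started back to back within 1000 bp at 6.21% of promoters with a summit and 3.92% without. Genes without a summit had to lack one within 1000 bp of any TSS, so genes with several TSSs were more easily left out of that group. Part of the difference in TSS number, and perhaps in length, can come from this choice. These values are descriptions, given without a test.

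Most genes had a single summit of this class: 1341 of 1468 nearest genes had 1, 107 had 2 and 18 had 3. Ptpmeg2 had 6, with signals from 115.2 to 1697.4, and Eip75B, a nuclear receptor gene induced by ecdysone, had 5, from 132.3 to 890.6, at its alternative starts. REPTOR, a transcription factor downstream of TORC1, had 3 summits, of 1463.9, 231.4 and 137.9, of which the strongest lay 171 bp upstream and the others 7 and 54 bp downstream of a TSS. At gro, the corepressor Groucho, 3 summits of 617.4, 179.3 and 146.8 lay 145 and 108 bp upstream and 108 bp downstream. At Ptpmeg2, REPTOR and gro the summit farthest upstream of its TSS was the strongest. At Eip75B the strongest lay 23 bp downstream of a TSS and the one farthest upstream, by 94 bp, had 143.4. Some of the weaker summits of these genes had no matching peak in one or both of the replicates. By arm, summits numbered 375 on 3R, 350 on 2R, 333 on 3L, 297 on 2L, 252 on X and 13 on 4, and X held 15.6% of them and 17.9% of the whole list. The share of genes without a divergent TSS that had a summit ranged from 13.9% on 2L to 16.7% on 2R among the large arms, with 14.5% on X and 11 of 58 genes on 4.

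The share of summits matched in both replicates was close to that in the rest of the list. When a match between the replicates' own lists had to cover 50% or more of each interval, 881 of 1620 summits, 54.4%, had a match in both (interval 51.9% to 56.8%), against 3082 of 5709 other thresholded summits, 54.0% (52.7% to 55.3%), and 57.0% at divergent promoters. With an overlap of 1 bp the share at non-divergent promoters was 79.4%. Replicate 1's signal was a median of 1.47 times that of replicate 2 at these summits and 1.48 times at the others. Over the 1185 summits matched at any rank the signals of the replicates had a Spearman's rho of 0.735, against 0.798 over 3977 other summits. Among the members of the highest 1000 peaks, the ranks differed most at CG10600, with a signal of 254.3 and rank 930 in replicate 1 but 16.6 and rank 22834 in replicate 2, and at CG32982, with 234.0 and rank 1075 in replicate 1 and 42.6 and rank 8564 in replicate 2. DEF8, CG2258 and sm followed, with ranks within a factor of 2 of each other. At CG10600 and CG32982 the matched peak of replicate 2 had its summit 159 and 6 bp upstream of the TSS, where the pooled summit lay 43 bp downstream and 197 bp upstream, so the match is to a different summit of the same interval.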

How the data were processed

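The study deposited peak lists from ChIP-seq of Fer1-eGFP in 2 biological replicates. Per the labels, replicates and their pool were called as input for a reproducibility analysis, and the authors' thresholded list followed from it. The signal per peak is the authors' value, as deposited, whereas for the aligner, peak caller and threshold nothing is given in the sources used here. Replicate and pooled lists hold 30000 peaks each, on dm6. Read totals were not at hand, so depth is unknown.

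Each summit was assigned to coding TSSs of Ensembl release 115 (19607 TSSs of 13945 genes), with sequence from the Release 6 assembly, which is dm6. Motif shares were compared by Fisher's exact tests or, for windows of the same summit, exact McNemar tests, two-sided with Benjamini-Hochberg adjustment over the 22 or 19 motifs or all hexamers. A replicate peak matched when at least 50% of both intervals overlapped, and of several the one with the nearest summit was taken. P-values count summits or promoters, so variation between collections of embryos is not in them. With 1 group there was no contrast between conditions. The tests were tried on simulated data with planted motifs.

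Named genes were the nearest genes of the 15 strongest summits, of up to 3 summits per gene list and per motif that passed, of the 4 genes with most summits, and of the 5 summits among the highest 1000 peaks whose replicate ranks differed most. Gene lists were matched by symbol, with 3 listed symbols not matched. The members, lists, tests and named genes were chosen with earlier results of these data known. Tests ran in scipy 1.17.1 under Python 3.11.15, with tables in pandas 2.3.3.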

Additional observations from a re-analysis of the deposited data

How the results depend on the processing

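The median lay upstream under every alternative run for it, but sizes moved with the rules. The strongest group's share over 100 bp upstream was set against a weaker group only in the pooled list and each replicate, and it was not computed for the 100 bp window. The motifs at promoters were not rerun with other TSS windows, partners up to 500 bp, canonical TSSs or 1 summit per gene. With TSS windows of 100 and 500 bp, the median position was −8 and −76 bp, the share upstream 55.4% and 69.3%, the median signal 0.884 and 0.993 of the list's, and the share of genes with a summit 10.3% and 19.5%. The 100 bp window kept 1008 summits and put 51.5% of them in both replicates, and the 500 bp window put 68.9% of the strongest group over 100 bp upstream. With divergent partners up to 500 bp away the median was −30 bp, 61.2% lay upstream, 16.2% of genes had a summit and 48.9% of the strongest group lay over 100 bp upstream. With partners up to 2000 bp these shares were 63.6% upstream, 14.4% and 51.6%. Canonical TSSs alone gave 62.2% upstream and 13.7% of genes. The part of the list above its median signal held 730 of the summits, with a median of −71.5 bp, 70.4% upstream, 7.05% of genes and 61.5% of the strongest group. With 1 summit per gene the median was −35.5 bp, 64.5% lay upstream, the signal ratio was 0.974 and 54.0% of the strongest group lay over 100 bp upstream. Leaving out either replicate gave medians of −35 to −32 bp, shares upstream of 62.9% to 63.1%, signal ratios of 0.948 to 0.976, 14.8% to 15% of genes, and 49.2% to 49.8% of the strongest group. An overlap of 1 bp put 79.4% in both replicates, and replicate lists shortened to the length of that upper part and lists of 15000 peaks put there 29.0% and 72.2%.

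At promoters, 7 motifs were higher and 6 lower with a summit, and the alternatives run gave 7 to 9 higher and 4 to 9 lower. Against divergent summits, windows of 100 bp to each side gave 2 higher and 2 lower in place of 1 and 0, partners up to 500 bp gave 1 lower, and leaving out a replicate gave 1 to 2 higher. Against sequence 400 bp upstream, 6 motifs were higher and 1 lower. The number lower was 0 within 25 bp, 2 within 100 bp, 3 against windows 400 bp downstream and 2 against windows 1000 bp upstream. The part of the list above its median gave 2 higher and 0 lower. Against windows 400 bp downstream, Motif 8 turned to −0.370 percentage points, CAAATG to 0.123, the hexamer AAATTA to 5.56 and CATTAA to 0.123, and against windows 1000 bp upstream AAATTA turned to 0.123. Hexamers higher and lower numbered 82 and 43 within 25 bp, 425 and 373 within 100 bp, and 16 and 14 with the part of the list above its median, all 16 and 12 of the 14 among those of the full list. There were 271 lower against windows 400 bp downstream and 144 higher against windows 1000 bp upstream. Why these counts moved was not tested, though shorter windows hold fewer hexamers and the shorter list has fewer summits. No paired analysis was possible because all samples form 1 group.

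The unknown read depth, the absence of a control library here and the annotated rather than measured TSSs limit all of these values. Whole embryos mix cell types. Shares carry counting error over summits or genes only.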
